A study of Homo sapiens with 4 samples.

Results

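P2Y receptors are the G protein-coupled receptors that sense nucleotides outside the cell, and 7 of their genes were followed in HEK293 cells: P2RY1, P2RY2, P2RY4, P2RY6, P2RY11, P2RY12 and P2RY14. A probe was assigned to a member when the RefSeq accession in its name belonged to that gene. All 7 members had probes, and they were 7 of 17217 named genes, with 27 of the 71998 probes on the array. P2RY6 and P2RY12 each had 6 probes, in separate sets for 2 accessions, and each other member had 3. Only 1 of the 7 members, P2RY11, had a mean above the level that the control genes set, against 52.7% of all named genes. It stood above that level on 3 of 4 arrays, and a limma test did not call it above (adjusted p = 0.171). The other 6 stood below that level on every array, and their ranges over the arrays overlapped. Within each array P2RY1 still exceeded P2RY4, P2RY6 and P2RY12, and P2RY14 exceeded P2RY12.

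HEK293 cells descend from human embryonic kidney cells transformed with adenovirus DNA, so its message levels are those of 1 line in culture and not of kidney. The 4 samples formed a single group of untreated cells grown in serum-containing medium, and no genotype, agent or time point was compared. According to the study's methods, each replicate came from its own plate and its own RNA extraction. Message was measured in a single colour on arrays of long oligonucleotide probes, and the study asked which receptors and signalling proteins this widely used host cell has message for.

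ATP, ADP, UTP, UDP and UDP-glucose leave cells through channels, vesicles and damage, and cell-surface enzymes then cut them down in steps. P2RY1, P2RY2, P2RY4 and P2RY6 couple mainly to Gq, which drives phospholipase C and calcium release, while P2RY12 and P2RY14 couple to Gi, which inhibits adenylyl cyclase. P2RY11 couples to both Gq and Gs. P2RY12 is best known from platelets, where it is the target of clopidogrel, and from microglia, while P2RY2 and P2RY6 are found in many epithelia, kidney tubules included.

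The 250 bases before the annotated start were read from RefSeq on GRCh38.p14, in which 4 of the 7 members had an entry, to show how different the start regions of genes with low signals can be. P2RY1 had 28 CpG dinucleotides there, a number that 15.9% of 35116 such windows reached, and its window was 74.0% G and C. P2RY12 had 1 CpG in the window of its outer start, a number that 93.9% of windows reached, and was 36.8% G and C. The median window held 11 CpG and was 58.0% G and C. TATAAA, searched on both strands, was present in 10.7% of all windows and was not found in that of P2RY1. In the outer P2RY12 window it was found on the opposite strand, as TTTATA in the sequence printed below. In the sequences that follow, CpG is in capitals. The window of P2RY1 spans chr3:152834881-152835130 on the plus strand and that of P2RY12 spans chr3:151384754-151385003 on the minus strand, both given 5′ to 3′.
P2RY1: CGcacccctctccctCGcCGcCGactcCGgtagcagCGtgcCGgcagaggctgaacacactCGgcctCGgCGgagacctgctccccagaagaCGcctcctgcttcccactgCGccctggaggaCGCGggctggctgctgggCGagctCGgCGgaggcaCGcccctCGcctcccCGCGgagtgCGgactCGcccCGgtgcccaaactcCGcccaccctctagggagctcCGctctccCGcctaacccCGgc
P2RY12: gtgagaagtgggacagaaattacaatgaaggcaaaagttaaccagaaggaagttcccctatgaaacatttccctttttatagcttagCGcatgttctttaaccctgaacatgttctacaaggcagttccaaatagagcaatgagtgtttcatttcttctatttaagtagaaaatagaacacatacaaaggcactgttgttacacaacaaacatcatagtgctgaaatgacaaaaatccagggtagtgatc

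P2RY11 had 3 CpG in its window, a number that 77.1% of windows reached, and no TATAAA. P2RY14 had 1 CpG before its outer start and 2 before its inner one, also with no TATAAA. The window of the inner P2RY12 start had 3 CpG, was 37.2% G and C and held TATAAA. These counts describe letters only and were not tested against the array values.

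A gene's level below is its log2 array value, and its distance is that level minus the baseline of the same array. The baseline followed the study's rule: the average of seminal protein genes, thought to be silent in the line, raised by 2 SD. It was 9.47, 9.94, 10.69 and 10.32 log2 units on replicates 1 to 4, a mean of 10.10. Among the 10 matched control genes, AFG2A (listed by the study as SPATA5) and SPATA13 lay close to the baseline themselves, at distances of -0.13 ± 0.15 and -0.38 ± 0.19 (SD, n = 4), and the other 8 were called below it, between -3.58 and -2.85. Leaving out both genes put the baseline at 7.78. All 8 reference genes stood above it on each array, with a median distance of 4.18, and so did the epithelial and mesenchymal markers VIM (5.26), KRT8 (4.80) and CDH2 (4.59). The kidney transcription factor PAX2 stood at -1.63 ± 0.74 (SD, n = 4) and did not rise above the baseline on any array. Of 7 platelet and 8 microglial or leukocyte markers, 1 each was called above, GP1BA at 1.11 ± 1.12 (limma adjusted p = 0.00204) and TYROBP at 1.25 ± 1.83 (limma adjusted p = 0.000485; SD, n = 4), neither above on all arrays. The other 6 and 7 were called below, with list medians of -1.23 and -2.51. The test used a standard error of 0.351 common to all genes. Its p-values therefore do not measure the wide spread of single genes such as GP1BA, TYROBP, AIF1 and ITGB3. AIF1 (SD 2.05) and ITGB3 (SD 1.39, n = 4 each) were called below although each stood above the baseline on 2 of 4 arrays. TYROBP distances were -0.28, 2.89, -0.39 and 2.78 on replicates 1 to 4. The platelet markers ran from GP1BA through ITGB3 (-0.85), ITGA2B (-1.04), GP9 (-1.23) and GP6 (-1.73) to PPBP (-3.49) and PF4 (-3.54), and the others from TYROBP through AIF1 (-0.73) and CSF1R (-0.79) to PTPRC (-3.50). Olfactory receptor genes had a median distance of -3.42, and the part of any such cells in the P2Y values was not tested.

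The study's rule, a positive mean distance, was recomputed here with the 10 matched control genes and may not return the study's own calls. It put 1 of 7 P2Y receptors above the baseline, against 52.7% of all named genes. The limma test of the distance against 0, adjusted by Benjamini-Hochberg over all 17217 genes, called 0 of the 7 above the baseline, where it called 45.8% of all genes. At an unadjusted p under 0.05 the count of members was also 0, where 7919 of all genes were above. With a trend and robust prior it was 0 again, where 7720 of all genes were called above. The adjusted test without that prior called 6 of 7 below the baseline, against 41.1% of all genes. These calls depended on the controls: without SPATA5 and SPATA13 there were 1 above and 3 below, and with olfactory receptor genes as controls 1 above and 4 below, the one above being P2RY11 in both cases. Of all 17217 genes, 11694 were called above and 3113 below in the first setting, and 11324 and 3739 in the second. The median distance of the members was -2.87, and that of all genes was 0.26. All genes took a common standard error of 0.351 and shared each array's baseline, so adjusted p-values are printed only near the threshold. Probes differ in how strongly they bind, so the order of levels between genes is one of signal and not of transcript number.

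**Figure D1:**
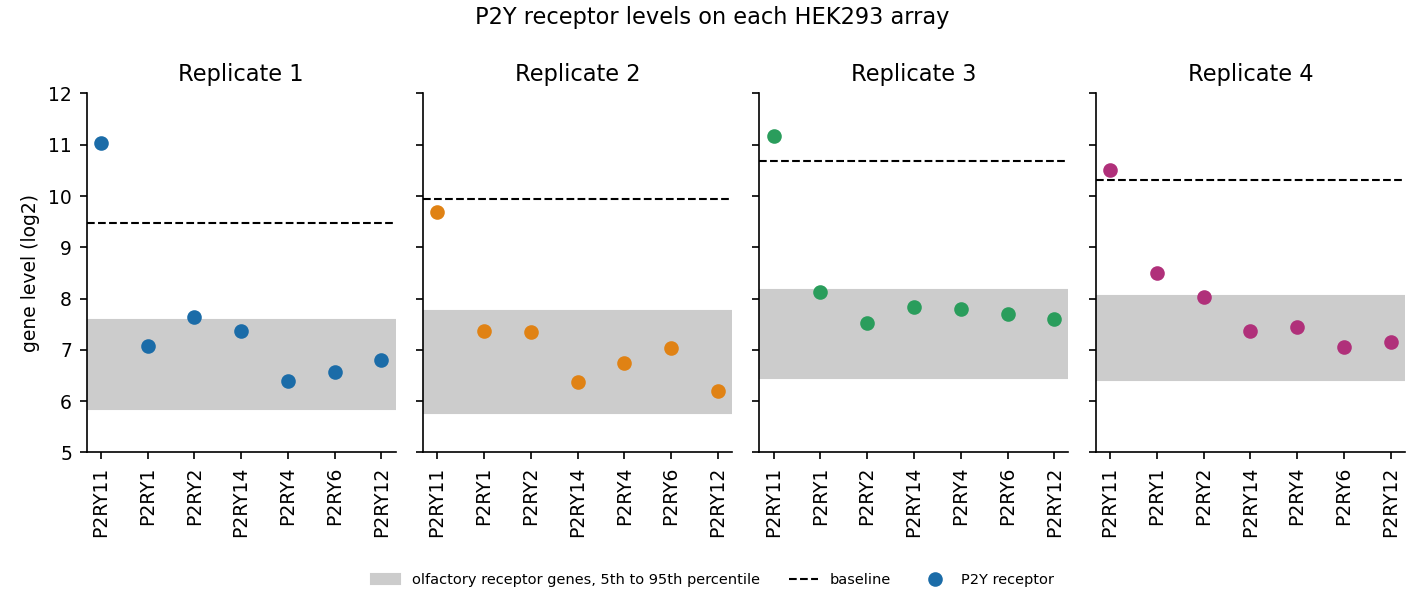
Level of each P2Y receptor (log2, y axis) on each of the 4 HEK293 arrays. The dashed line is the baseline of that array and the grey band holds the 5th to 95th percentile of 364 olfactory receptor genes. P2RY11 stands apart on every array, by 2.02 to 3.39 from the highest other member, while the other 6 lie in the band or just over its upper edge.

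P2RY1, an ADP receptor that starts platelet shape change and acts through Gq, had levels of 7.07, 7.37, 8.12 and 8.50 on replicates 1 to 4, a mean of 7.77 ± 0.66 (SD, n = 4). Replicates 3 and 4 gave the higher values, as they did for the baseline, and its distance was -2.34 ± 0.35 (SD, n = 4), from -2.57 to -1.82. It was the highest of the 6 receptors below the baseline, and 25.8% of all genes had a lower mean level. Of 364 olfactory receptor genes 17 had a higher mean, and P2RY1 lay 1.07 ± 0.38 (SD, n = 4) above the olfactory median, a difference of the same sign on all 4 arrays.

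P2RY2, which ATP and UTP activate about equally and which binds alpha-v integrins through an RGD motif, had levels of 7.64, 7.34, 7.52 and 8.03, with a mean of 7.63 ± 0.29 (SD, n = 4). This was the smallest spread in level among the members. Its distance ran from -3.17 on replicate 3 to -1.83 on replicate 1, with a mean of -2.47 ± 0.56 (SD, n = 4). Its mean level lay 0.93 ± 0.37 (SD, n = 4) above the olfactory median, and 22 olfactory genes were higher.

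P2RY4, a UTP receptor, had levels of 6.40, 6.75, 7.81 and 7.45, with a mean of 7.10 ± 0.64 (SD, n = 4). Although these levels differed by more than a log2 unit, the distance of -3.01 ± 0.15 (SD, n = 4) was the most even of any member, between -3.19 and -2.88. P2RY6, the UDP receptor, was close to it at 6.56, 7.04, 7.71 and 7.05, a mean of 7.09 ± 0.47 (SD, n = 4) and a distance of -3.01 ± 0.18 (SD, n = 4). P2RY4 levels ranked the 4 arrays in the same order as the baselines did. The probe sets for the P2RY6 accessions gave 7.04 ± 0.45 and 7.14 ± 0.65 (SD, n = 4 each), a difference smaller than their spread over arrays. Olfactory genes with a higher mean numbered 57 for P2RY4 and 58 for P2RY6.

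P2RY12, the second ADP receptor of platelets, which acts through Gi, had levels of 6.80, 6.20, 7.60 and 7.16 and the lowest mean of the family, 6.94 ± 0.59 (SD, n = 4). Its distance was -3.16 ± 0.44 (SD, n = 4), 12.5% of all genes were lower, and 81 olfactory genes were higher. It stood 0.24 ± 0.23 (SD, n = 4) above the olfactory median, about the size of the spread. The sets for its accessions gave 6.90 ± 0.80 and 6.98 ± 0.49 (SD, n = 4 each) and did not differ beyond that spread.

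P2RY14, the receptor for UDP-glucose and UDP, had levels of 7.37, 6.38, 7.84 and 7.36, with a mean of 7.24 ± 0.61 (SD, n = 4). Replicate 2 was the lowest for P2RY14 and also for P2RY12, although its baseline was not the lowest. The distance of P2RY14 was -2.87 ± 0.60 (SD, n = 4), the widest spread among the receptors below the baseline, from -3.56 on replicate 2 to -2.10 on replicate 1. It stood 0.54 ± 0.36 (SD, n = 4) above the olfactory median, with 45 olfactory genes higher. P2RY12 and P2RY14 lie in an annotated overlap with MED12L, a Mediator subunit gene, whose own level was 9.76 ± 0.63 and whose distance was -0.35 ± 0.20 (SD, n = 4).

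P2RY11, the ATP receptor that raises both calcium and cyclic AMP, had levels of 11.03, 9.70, 11.18 and 10.52, with a mean of 10.60 ± 0.67 (SD, n = 4). Replicate 2 alone fell short of its baseline, by a distance of -0.24, while replicates 1, 3 and 4 stood at 1.56, 0.49 and 0.20. The mean distance of 0.50 ± 0.77 (SD, n = 4) was smaller than the spread between arrays and did not pass the test (limma adjusted p = 0.171). Without replicate 1 the distance was 0.15, with a limma adjusted p of 0.682. It lay near the middle of the array, with 52.1% of genes lower. Set against olfactory receptor genes, none of the 364 had a higher mean, and the distance above their median was 3.91 ± 0.53 (SD, n = 4). Single arrays had 0, 3, 0 and 1 olfactory genes above it.

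The P2RY11 levels of replicates 1 and 3 were higher than those of replicates 2 and 4, and the same arrays differed more for the neurofilament gene NEFM, at 13.57, 8.32, 13.09 and 8.08 on replicates 1 to 4. TYROBP (9.19, 12.83, 10.30 and 13.11) and AIF1 (6.87, 11.34, 8.33 and 10.96) ran the other way on the same arrays. The microglial or leukocyte markers did not move together. CD14 (8.25, 6.76, 8.98 and 7.54), CSF1R (9.54, 8.83, 9.74 and 9.14) and CX3CR1 (7.19, 6.92, 7.98 and 7.17) were higher on replicates 1 and 3. PTPRC, ITGAM and TMEM119 followed neither split. Pearson's r across genes, which are not independent of each other, was highest for replicates 2 and 4 (0.978) and for replicates 1 and 3 (0.971), against 0.949 to 0.959 for the other pairs. Nothing in the labels sets these arrays apart, and the part of such a difference in the P2RY11 value was not tested.

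P2RY11 also has company at its locus. In the RefSeq annotation it overlaps PPAN, a ribosome assembly gene, the readthrough gene PPAN-P2RY11, for which no array value was used, and the translation factor gene EIF3G. PPAN had levels of 9.12, 9.20, 9.62 and 10.02, and its distance of -0.61 ± 0.36 (SD, n = 4) was negative on all 4 arrays. P2RY11 exceeded PPAN by 1.11 ± 0.73 (SD, n = 4), from 0.49 to 1.91. EIF3G was far higher, at 14.87 ± 0.06, with a distance of 4.76 ± 0.58 (SD, n = 4). Random priming on double-stranded cDNA labels both strands, so signal from overlapping transcripts of either strand cannot be told apart from P2RY11 message where a probe lies in shared sequence. Which P2RY11 probes do so was not tested.

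The single P2RY11 probes did not read alike. The first had values of 8.57, 8.39, 10.27 and 9.76 and exceeded the baseline on 0 of 4 arrays, with a mean of 9.25. The second had 11.61, 9.69, 11.73 and 10.76 and exceeded it on 3, and the third had 11.44, 10.38, 11.17 and 10.81 and exceeded it on 4, with a mean of 10.95 for each. The first was the lowest of the 3 on every array. The SD between the probe means was 0.98 log2 units. The median SD of a probe over arrays, 0.91, includes shifts that the probes share, so it does not measure this difference. In all, 7 of 12 P2RY11 probe values exceeded the baseline, and 0 of 96 did for the other 6 members. The median of all probes, 9.39 to 9.40, was also under the baseline on each array, so most probes fell below it.

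Among those members, P2RY1 had the closest probes, with means within 0.04 of each other, and P2RY6 the widest, with a range of 1.28. The highest single value was 8.85, in P2RY6 on replicate 3, and the lowest was 5.51, in P2RY6 on replicate 1. The ranges of probe means for P2RY2 (0.81), P2RY14 (0.75), P2RY12 (0.69) and P2RY4 (0.43) lay between those of P2RY1 and P2RY6.

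**Figure D2:**
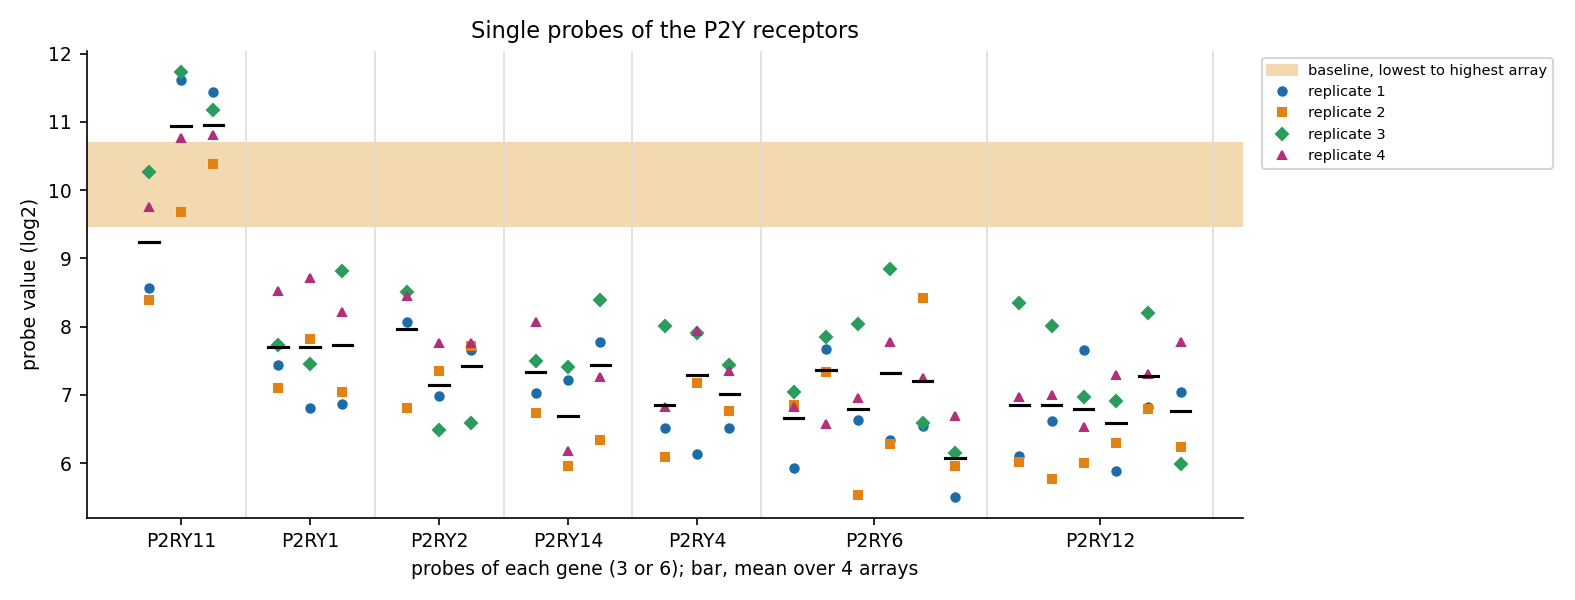
Value of every P2Y receptor probe (log2, y axis) on the 4 arrays, grouped by gene, with a bar for the mean of the arrays. The shaded band runs from the lowest to the highest array baseline, 9.47 to 10.69. The P2RY11 probes average 9.25, 10.95 and 10.95, and the other probes all lie below the band.

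By mean level the order was P2RY11, P2RY1, P2RY2, P2RY14, P2RY4, P2RY6 and P2RY12. P2RY11 exceeded P2RY1 by 2.84 ± 0.86 (SD, n = 4), with the same sign on all 4 arrays. Each later step was smaller than its spread: 0.13 ± 0.53 from P2RY1 to P2RY2, 0.39 ± 0.55 to P2RY14, 0.14 ± 0.58 to P2RY4, 0.01 ± 0.31 to P2RY6 and 0.15 ± 0.48 to P2RY12 (SD, n = 4 each). Further apart in the order, P2RY1 exceeded P2RY4 by 0.67 ± 0.30, P2RY6 by 0.67 ± 0.52 and P2RY12 by 0.82 ± 0.51 on all 4 arrays, and P2RY14 exceeded P2RY12 by 0.30 ± 0.18 on all 4 (SD, n = 4 each). The member just under P2RY11 changed with the array, P2RY2 on replicate 1 and P2RY1 on the other 3. No p is given for these steps, because with 4 arrays the smallest two-sided p of an exact sign-flip test is 0.125.

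The members were also set against olfactory receptor genes directly. Of the 7 members, 2, 1, 1 and 2 exceeded the 95th percentile of olfactory genes on replicates 1 to 4, where 72.2% to 73.6% of all genes did. The second member was P2RY2 on replicate 1 and P2RY1 on replicate 4. With the mean of the olfactory genes plus 2 SD as the baseline, 8.02 on average, P2RY1 stood at -0.26 and P2RY2 at -0.39, and the limma test no longer called them below it (adjusted p = 0.359 and 0.156), while P2RY11 stood at 2.58 and was called above.

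Among 49 other receptors for nucleotides, adenosine and related ligands, the nearest level profile to a member was sought by the root mean square difference over the 4 arrays. P2RY11 was nearest to the ATP-gated channel P2RX5, at 0.44. P2RY1 was nearest to GPR17 (0.46) and P2RY2 to P2RY1 (0.48), while P2RY6 was nearest to P2RY4 (0.26) and P2RY4 to P2RX2 (0.21). The measure describes similar signal over 4 arrays and does not separate genes that share the array background.

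Genes beside the members on the chromosome lay on both sides of the baseline. The splicing regulator MBNL1, next to P2RY1, stood at 2.14 ± 0.90, and RAP2B on its other side at -2.90 ± 0.40 (SD, n = 4 each). P2RY2 and P2RY6 are neighbours on chromosome 11 and both were below the baseline, between FCHSD2 at 2.05 ± 0.44 and ARHGEF17 at 2.33 ± 0.52 (SD, n = 4 each). P2RY4 lay between AWAT1 at -3.50 ± 0.37 and ARR3 at -3.33 ± 0.38 (SD, n = 4 each), all of them below. Next to the Gi-coupled members were GPR171, beside P2RY14, at -3.39 and IGSF10, beside P2RY12, at -1.77.

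Related class A receptors were mostly below the baseline as well. Of 33 listed, 32 had array values, 2 stood above the baseline and 28 were called below, with a median distance of -2.89. Both that stood above were protease-activated receptors, F2R at 2.04 ± 0.43 and F2RL1 at 1.80 ± 0.61 (SD, n = 4 each). P2RY8 and P2RY10, which carry the P2Y name but have lipid or other ligands, stood at -3.23 ± 0.26 and -3.87 ± 0.34 (SD, n = 4 each). P2RY13, an ADP receptor, was not matched to a probe and was not analysed here.

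ATP also opens the P2X channels, of which 2 of 7 stood above the baseline, both on all 4 arrays, 1 was called above and 5 were called below. P2RX4 was the one called, with a distance of 0.90 ± 0.61 (SD, n = 4, limma adjusted p = 0.0129), with P2RX5 next at 0.56 ± 0.60 (SD, n = 4, limma adjusted p = 0.126). P2RX3 (-0.80), P2RX1 (-1.41), P2RX2 (-2.86), P2RX7 (-2.90) and P2RX6 (-3.50) were called below. Adenosine, the end product of ATP breakdown, has 4 receptors, of which 2 had a positive mean distance and 0 were called above. ADORA2B stood at 0.52 ± 0.85 and ADORA2A at 0.05 ± 0.20, with ADORA1 at -1.84 ± 0.63 and ADORA3 at -3.49 ± 0.68 (SD, n = 4 each).

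Ways for nucleotides to leave the cell were read from 10 genes, of which 4 were called above and 4 below, with a median distance of 0.05. Those called above were the gap junction protein GJA1 (2.86 ± 1.09), the nucleotide sugar transporter SLC35D2 (2.41 ± 0.98), the ATP-releasing channel PANX1 (1.67 ± 0.48) and the volume-regulated channel subunit LRRC8A (0.94 ± 0.81; SD, n = 4 each). The vesicular nucleotide transporter SLC17A9 was called below at -0.75 ± 0.59 (SD, n = 4, limma adjusted p = 0.0386), as were PANX2 (-1.05), CALHM1 (-1.83) and PANX3 (-3.27). SLC35D1 (0.26) and CALHM2 (-0.16) were not called in either direction.

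Of 16 genes for nucleotide-splitting enzymes, 5 were called above and 10 below, with a median of -0.92. The 3 highest were ENPP2, better known as autotaxin and a maker of lysophosphatidic acid, at 3.25 ± 0.76, ENPP1 at 3.06 ± 0.46 and ENTPD6 at 2.96 ± 0.40 (SD, n = 4 each). ENTPD1 and NT5E, which turn extracellular ATP to AMP and AMP to adenosine, were chosen after their values were seen and stood at -0.91 ± 0.21 and -0.93 ± 0.45 (SD, n = 4 each), both called below. Enzymes that make or use UDP-sugars, the source of the P2RY14 ligand, were above the baseline in 5 of 5 matched cases and called in 4. UGP2, which makes UDP-glucose, stood at 4.33 ± 0.60, and UAP1 and UGGT2 stood at 3.91 ± 0.56 and 1.93 ± 0.81 (SD, n = 4 each). UGDH, which oxidises UDP-glucose, was not called, at 0.31 ± 1.13 (SD, n = 4).

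**Figure D3:**
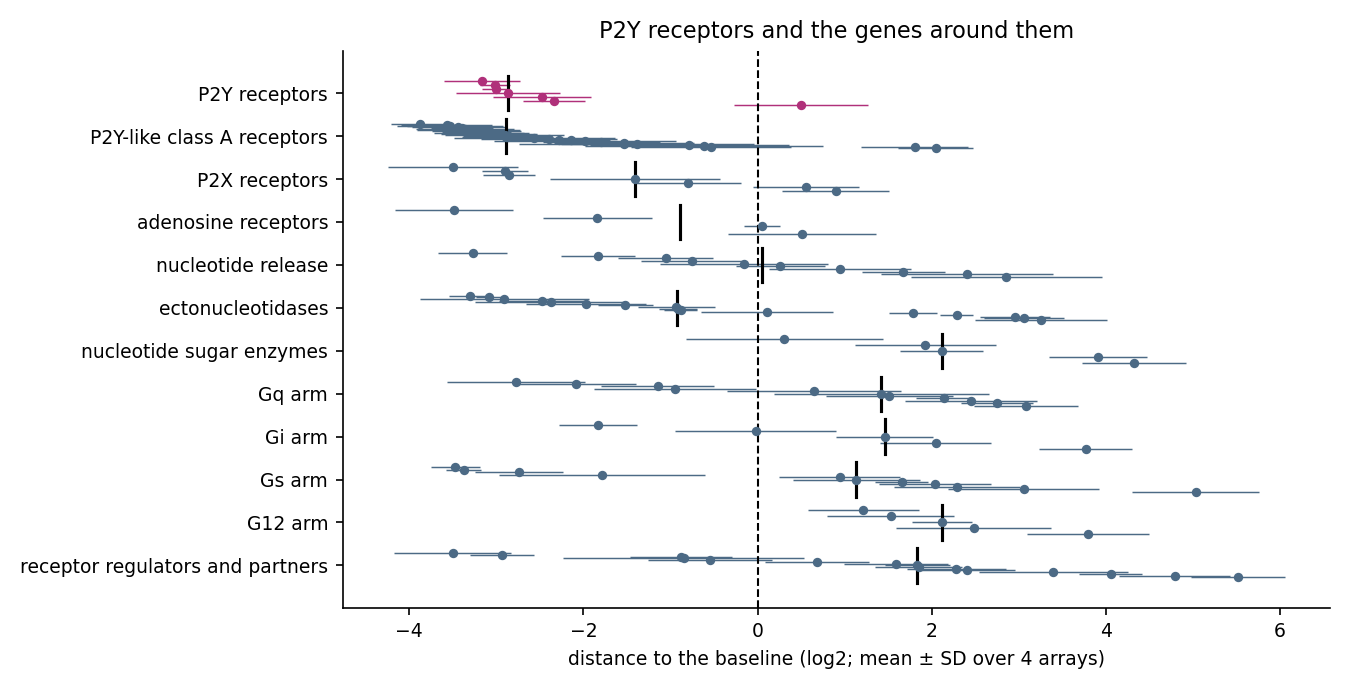
Distance to the baseline (log2, x axis, mean with SD over 4 arrays) for each P2Y receptor and for genes of related lists, 1 row per list, with a vertical bar at each list's median. The dashed line is the baseline. The P2Y median of -2.87 lies close to that of related class A receptors (-2.89), and those of the G protein lists lie between 1.14 and 2.12.

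Genes for the signalling proteins downstream of P2Y receptors had positive median distances in each list. The median of all named genes was positive too, at 0.26, with 45.8% of them called above and 41.1% below. Of 11 genes of the Gq arm, 6 were called above and 4 below, with a median of 1.42. The alpha subunits GNA11 and GNAQ stood at 3.08 ± 0.60 and 2.45 ± 0.76, phospholipase PLCB3 at 2.14 ± 0.32, and the calcium release channels ITPR3, ITPR2 and ITPR1 at 2.75 ± 0.41, 1.51 ± 0.73 and 1.42 ± 1.24 (SD, n = 4 each). PLCB1 was not called, at 0.65 ± 1.00 (SD, n = 4, limma adjusted p = 0.0736). The alpha subunits GNA14 (-1.15) and GNA15 (-2.08), and PLCB4 (-0.95) and PLCB2 (-2.78), were called below.

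For the Gi arm, through which P2RY12 and P2RY14 act, 3 of 5 alpha subunits were called above and 1 below. GNAI2 stood at 3.77 ± 0.54, GNAZ at 2.05 ± 0.64, GNAI3 at 1.46 ± 0.56, GNAI1 at -0.02 ± 0.92 and GNAO1 at -1.83 ± 0.45 (SD, n = 4 each). The Gs arm, which P2RY11 also uses, had 7 of 11 genes called above and 4 below. GNAS was the highest of them at 5.03 ± 0.73, followed by GNAL at 3.06 ± 0.87 and the adenylyl cyclases ADCY6 at 2.29 ± 0.73 and ADCY9 at 2.04 ± 0.64 (SD, n = 4 each). Of the G12 arm, 5 of 5 were called above, from GNA12 at 1.22 ± 0.63 to ARHGEF1 at 3.80 ± 0.70 (SD, n = 4 each).

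Of 15 regulators and partners of these receptors, 9 were called above and 4 below, with a median of 1.84. The highest were the actin cross-linker FLNA at 5.52 ± 0.54, the arrestin ARRB2 at 4.79 ± 0.64, and NHERF1, a PDZ scaffold protein, at 4.06 ± 0.36 (SD, n = 4 each). The receptor kinase GRK2, named after its value was seen, stood at -3.50 ± 0.68 (SD, n = 4) although it is known from nearly all tissues, so a place below the baseline on this array does not by itself show that message is absent.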

How the data were processed

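RNA from 4 replicates of untreated HEK293 cells was hybridised to single-colour 60-mer NimbleGen arrays designed on HG18. The authors deposited 1 log2 value for each of 71998 probes and 4 arrays. Their methods describe a scan, probe intensities from the maker's software and a log2 step, and the submitters' processing notes name RMA without a version. Sorted values matched within 0.01 at 99.97% of ranks between replicates 1 and 2 and at 99.99% between 3 and 4, but at 1.23% to 1.25% in other pairs, so normalization may have been made in separate pairs. The deposited values carry no background or saturation flags, and the number of arrays limits the precision.

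Accessions without versions were matched to RefSeq genes of GRCh38.p14, which named 19125 of 24000 targets (17217 genes). Each target's probes were averaged on the linear scale and logged again, and targets of a gene were then averaged in log2. For the baseline, 10 of 11 seminal control genes were matched (SPATA5 is now AFG2A) and PYY2 was not. limma 3.58 in R 4.3 tested each gene's mean distance against 0, two-sided, with Benjamini-Hochberg adjustment at 0.05, and was tested on simulated data. There was 1 group and no comparison between conditions.

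The members and gene lists were chosen with earlier results of these data known. All members, control genes and genes of lists up to 11 were named, with the 3 highest of longer lists, P2RY8, P2RY10 and P2RY13, chromosomal neighbours and the receptor nearest in level. Some genes that this rule allows are not reported here. Other genes are said to be named after their values were seen. The 17 alternatives varied the baseline, controls, probe summary, filter, normalization, arrays and prior.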

Additional observations from a re-analysis of the deposited data

How the results depend on the processing

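The calls of P2RY11, P2RY1, P2RY2 and P2RY14 depended on the baseline. With the control mean plus 3 SD the baseline was 11.42, P2RY11 reversed to -0.82 (limma adjusted p = 0.0398), 0 members had a positive distance and 7 were called below, as were 9038 of 17217 genes. The count called above was 1, P2RY11, with plus 1 SD (baseline 8.79, distance 1.82), with the median plus 2 scaled MAD (8.40, 2.21), without SPATA5 and SPATA13 (7.78, 2.83), with olfactory controls (8.02, 2.58) and with the median of probes (9.97, 0.80, limma adjusted p = 0.0401). In the same order, 10095, 10648, 11694, 11324 and 7351 of 17217 genes were called above, against 7885 in the report. The count called below was 3 without SPATA5 and SPATA13 (3113 of all genes, against 7069 in the report), where P2RY1 stood at -0.01, P2RY2 at -0.15 and P2RY14 at -0.54 (limma adjusted p = 0.967, 0.613 and 0.0651). It was 4 with olfactory controls (3739 of all genes) and 5 with the MAD (4354), where P2RY1 stood at -0.63 (limma adjusted p = 0.0661). With the filter on low values it was 0, because P2RY11 alone among the members was still tested (limma adjusted p = 0.206, with 74 of 9533 genes called below). The lower baselines follow from their construction. With the median of probes the P2RY11 level was that of its middle probe on each array, 11.44, 9.69, 11.17 and 10.76. In the report it was 11.03, 9.70, 11.18 and 10.52. The baseline fell from 10.10 to 9.97 at the same time, and the part of each change in the moved call was not tested.

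Leaving out each replicate kept the counts at 1 above the baseline, 0 called above and 6 called below. Of all genes, 50.6% to 54.3% then stood above the baseline, 7462 to 8095 were called above and 6694 to 7349 called below. The P2RY11 distance moved between 0.15 and 0.75 (limma adjusted p from 0.103 to 0.682). P2RY11 stood at 0.66 on replicates 1 and 2 alone and at 0.34 on replicates 3 and 4 alone. Of the alternative values for counts of members, 43 stayed within 1.5 times and 8 moved further. Of those for single members, 101 kept their direction and side of the threshold, 6 lost significance, 5 gained it and 1 changed sign. No paired analysis was possible because the design holds a single group. Signal that stays near that of olfactory receptor genes limits what the low members can show.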
